A study of Mus musculus with 7 samples.

Results

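The clustered protocadherins are a family of neuronal cell-surface adhesion proteins encoded by neighbouring gene clusters named alpha (Pcdha), beta (Pcdhb) and gamma (Pcdhg). Members were taken from the gene count table by symbol, and a gene was kept when its mean raw count over the 7 libraries was at least 10. This gave 56 members of 22248 genes in the table, 14 in Pcdha, 21 in Pcdhb and 21 in Pcdhg. A single matching gene fell short of that mean: Pcdhb1 had a mean of 0.429 counts, while Pcdhb13, the member nearest the limit, had 15.5. RNA was sequenced from hippocampal synaptoneurosomes, a fraction of pinched-off nerve endings with their postsynaptic partners, of wild-type female C57Bl/6J mice. The AM6545 group held 4 libraries, labelled B, D, E and F, the Vehicle group held 3, labelled B, D and E, and there was no other group. AM6545 is a blocker of the cannabinoid receptor CB1 that was designed to enter the brain poorly. The dose, the length of treatment and the number of animals behind each library are not given in the sources used here. Nothing states that the libraries came from separate animals, so p-values here measure only the spread between these libraries.

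Each member of the alpha and gamma clusters begins with its own long exon, which encodes the extracellular domains, the membrane span and part of the cytoplasmic tail. That exon is spliced to constant exons shared by the whole cluster, whereas beta members lack constant exons and are mostly encoded by a single exon. A neuron switches on a small set of the alternate promoters, a choice that involves CTCF, cohesin and DNA methylation, and the resulting protein combinations let neurites of the same cell recognise and avoid each other. The C-type members at the ends of the alpha and gamma clusters (Pcdhac1, Pcdhac2, Pcdhgc3, Pcdhgc4 and Pcdhgc5) are expressed more uniformly and escape much of this choice.

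All 3 clusters lie on the plus strand of mouse chromosome 18 (GRCm38), Pcdha at 36930184 to 37187661, Pcdhb at 37294812 to 37524479 and Pcdhg at 37661793 to 37841873. The constant exons of Pcdha measured 59, 89 and 2712 bases in the GENCODE M21 annotation, 2860 bases in all. Those of Pcdhg measured 59, 89 and 1971 bases, 2119 in all. A read from a constant exon carries no trace of its member, and Salmon, which made the counts, divides such reads among transcripts by estimation. The median share of a member's 31-base words found in no other gene was 38.1% in Pcdha, 52.1% in Pcdhg and 87.9% in Pcdhb. It was lowest for Pcdha4 (2.29%) and Pcdhgc4 (9.88%), so the values of these 2 members are uncertain, and the sum over a cluster depends less on that division. Pcdhgc4 has a full-length transcript, Pcdhgc4-201 (5024 bases), whose own exon measures 2905 bases. It also has a short one, Pcdhgc4-203 (2272 bases), with an own exon of 153 bases, so that the constant exons make up 93.3% of it.

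**Figure D1:**
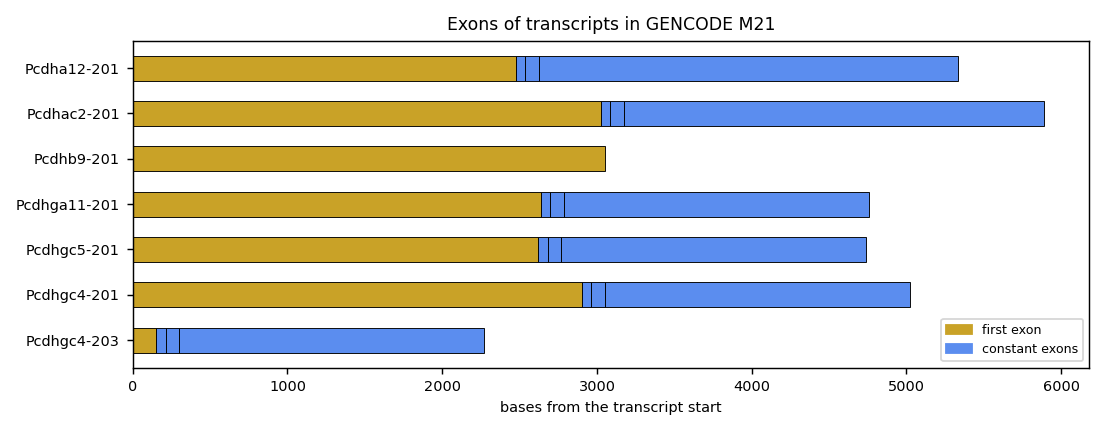
Exon lengths in bases (horizontal axis) of 7 transcripts in the GENCODE M21 annotation, with the exon at the start of each transcript in yellow and the constant exons in blue. The own exon of Pcdhgc4-203 measures 153 bases against 2905 in Pcdhgc4-201, and Pcdhb9-201 has no constant exon.

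Total gene counts were 19174649 to 25894733 per library, and 16580 to 16874 genes were detected. Defining markers of neurons, interneurons, astrocytes, oligodendrocytes and their precursors, microglia, vessel cells and choroid plexus were detected, none at 0 in all libraries. Of these 42 markers 0 passed an adjusted p of 0.05 (edgeR). At an unadjusted p under 0.05, 6 were lower and 0 higher in AM6545, where 8.70% of all genes were lower and 5.86% higher. The ranges of the markers' summed levels per cell type overlapped between groups. Choroid plexus markers (5 of 5 detected) ranged most widely, from 416 to 1961 CPM (counts scaled to the library's size) in AM6545 and from 1563 to 2772 in Vehicle. Their part in the members' values was not tested. In bulk RNA, fewer cells of a type and less RNA per cell cannot be told apart.

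Levels are given as CPM after TMM scaling and, where genes are compared, as CPM per kilobase of transcript. Among alpha members, Pcdhac2, which is needed for the even spacing of serotonergic axons, had the highest level at 9.94 CPM per kilobase (coefficient of variation over the 7 libraries, CV, 13.0%). Pcdha12 followed at 3.37 (CV 10.4%) and Pcdha4 at 1.99 (CV 14.2%). Pcdhac1, the other C-type alpha member, was at 0.909 CPM per kilobase, rank 11 of 14. Pcdhac2 alone made up 40.1% of all alpha counts on average.

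Among beta members, Pcdhb9 was at 7.87 CPM per kilobase (CV 12.5%), Pcdhb7 at 4.43 (CV 12.6%) and Pcdhb12 at 4.16 (CV 17.3%). Levels within the cluster ran from 0.179 to 7.87, with a median of 1.06. The gap between Pcdhb7 and Pcdhb12 was smaller than the spread of either over the libraries.

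The gamma cluster was headed by its C-type members in the order Pcdhgc4 (82.2 CPM per kilobase, CV 23.4%), Pcdhgc5 (19.5, CV 23.7%) and Pcdhgc3 (7.01, CV 21.3%). Pcdhgc5 has been described as a partner of GABA-A receptors, and Pcdhgc4 is needed for the survival of many neurons. Pcdhgc4 does not reach the cell surface without other protocadherins. Its rank rests on the short transcript: Pcdhgc4-203 was at 82.4 CPM per kilobase, and the full-length Pcdhgc4-201 at 1.93, below the median gamma member at 2.04. The share of Pcdhgc4 counts given to Pcdhgc4-203 was 90.5 to 93.8% in AM6545 and 94.1 to 97.7% in Vehicle, without overlap. The gap was narrow, between AM6545 F and Vehicle E.

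**Figure D2:**
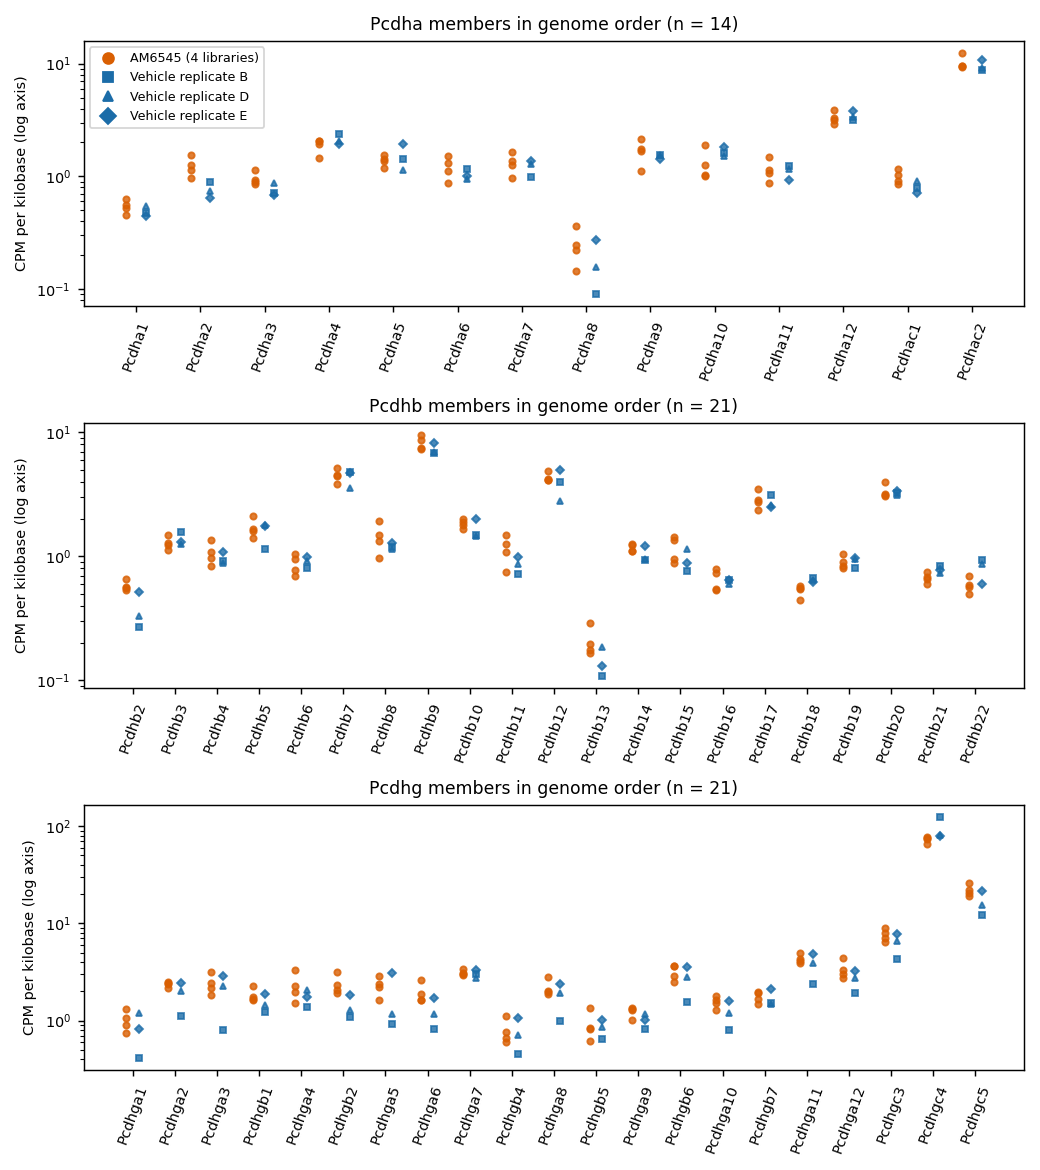
Level of each of the 56 members in CPM per kilobase (vertical log axis), in genome order within each cluster, with 1 point per library (orange circles, AM6545; blue squares, triangles and diamonds, Vehicle B, D and E). Pcdhac2, Pcdhb9 and Pcdhgc4 stand highest in their clusters, and the squares of Vehicle B lie lowest in 17 of the 20 gamma members other than Pcdhgc4.

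The comparison of AM6545 with Vehicle asks how members differed in the synaptic fraction after the CB1 blocker. By edgeR's quasi-likelihood test with Benjamini-Hochberg adjustment over all genes, 0 of 56 members passed an adjusted p of 0.05, where 0.00682% of all 14654 genes tested did. The smallest adjusted p of a member was 0.205. At an unadjusted p under 0.05 there were 5 members higher in AM6545 (Pcdha2, Pcdhb2, Pcdhgb2, Pcdhga6 and Pcdhgc5) and 2 lower (Pcdhb22 and Pcdhgc4). Over all genes 5.86% were higher and 8.70% lower at that level, so 7 of 56 stood near the 14.6% for either direction. The libraries of the 2 groups did not overlap in 3 members higher in AM6545 (Pcdha2, Pcdhb2 and Pcdhgb2) and 2 lower (Pcdhb18 and Pcdhgc4), against backgrounds of 6.63% and 7.19%. DESeq2 and limma-voom each called 1 member, Pcdhgb2, with 1.62% and 2.69% of all genes called.

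Fitted log2 fold changes were above 0 for 10 of 14 alpha, 15 of 21 beta and 20 of 21 gamma members, and for 51.4% of all genes. Their medians were 0.13 in Pcdha, 0.14 in Pcdhb and 0.31 in Pcdhg, beside 0.008 over all genes. The gamma count fell most without Vehicle B, to 14 of 21 members above 0 (51.1% of all genes), with a median of 0.08. It was 18 without AM6545 B and 18 without Vehicle D, where 49.7% and 50.5% of all genes were above 0. The alpha median was -0.0030 without AM6545 E. The beta median was 0.01 without Vehicle D and -0.01 after correction of each library for GC content and gene length, while that of Pcdhg was 0.30 after that correction.

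**Figure D3:**
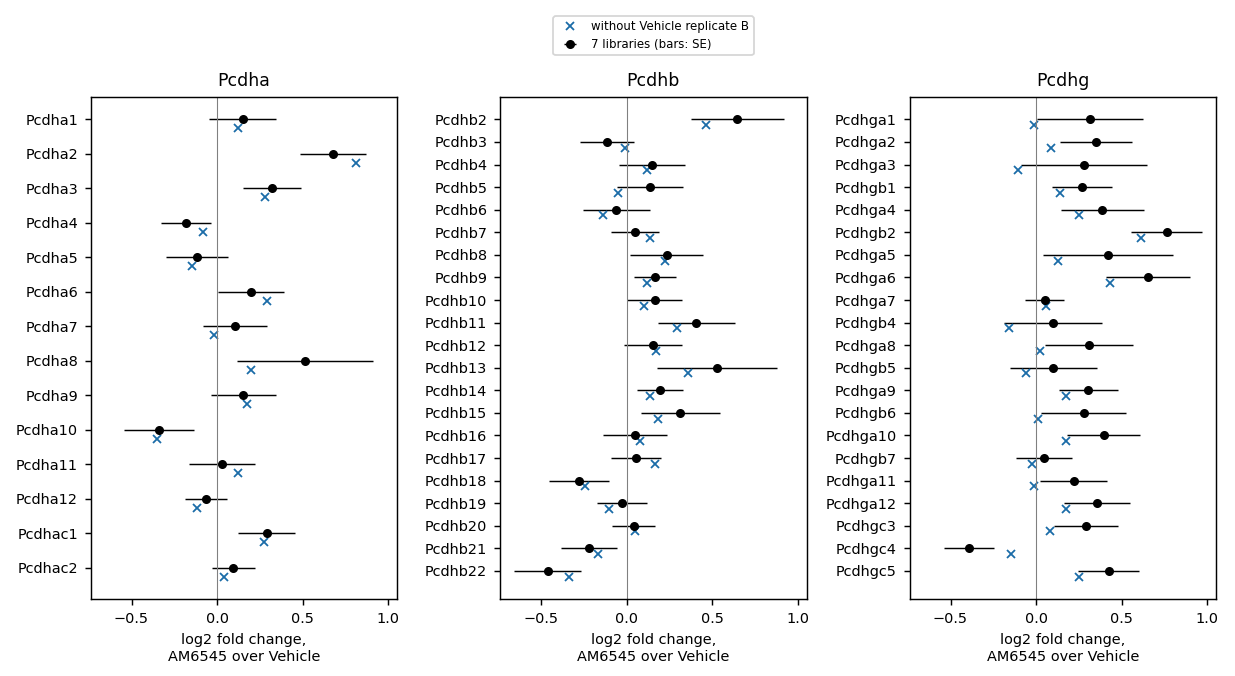
Fitted log2 fold change of AM6545 over Vehicle (horizontal axis) for each member, with black points and standard-error bars from all 7 libraries and blue crosses from the fit without Vehicle B. The crosses of most gamma members lie closer to 0 than their points, and Pcdhgc4 is the gamma member below 0 in the fit of 7 libraries.

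Summed over its 21 members, the gamma cluster stood at 494, 498, 538 and 456 CPM in AM6545 B, D, E and F and at 480, 452 and 519 CPM in Vehicle B, D and E. The groups overlapped throughout, with means of 496 ± 33.3 (SD, n = 4) and 484 ± 33.4 (SD, n = 3), a ratio of 1.03. The sum splits unevenly into Pcdhgc4 and the other 20 members. Without Pcdhgc4 the sum was 319, 314, 378 and 276 CPM in AM6545 and 180, 255 and 328 CPM in Vehicle. Vehicle B was the lowest library and Vehicle E the second highest, so the groups overlapped, with means of 322 ± 42.5 and 255 ± 74.3 and a log2 ratio of 0.34.

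Pcdhgc4 itself was at 176, 184, 159 and 181 CPM in AM6545 and at 300, 197 and 190 CPM in Vehicle. All AM6545 libraries lay below all Vehicle libraries, and Vehicle B lay far above the other 2. The fitted log2 fold change was -0.39 (SE 0.15, edgeR adjusted p = 0.269), and -0.14 without Vehicle B. The share of Pcdhgc4 in the cluster was 62.5% in Vehicle B and 29.6 to 43.5% in the other 6 libraries.

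The 2 tested protein-coding transcripts of Pcdhgc4 lay on opposite sides of 0. The short Pcdhgc4-203 was at 164, 173, 145 and 169 CPM in AM6545 and 294, 189 and 177 CPM in Vehicle, with Vehicle B highest and the groups apart. Its log2 fold change was -0.43 (SE 0.18, edgeR adjusted p = 0.595), and -0.17 without Vehicle B. The full-length Pcdhgc4-201 was at 11.4, 9.85, 14.1 and 10.3 CPM in AM6545 and 5.41, 8.28 and 8.44 CPM in Vehicle. Vehicle B was the lowest library and AM6545 E the highest, again without overlap, and the log2 fold change was 0.63 (SE 0.22, edgeR adjusted p = 0.559).

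Of 26 tested gamma transcripts 24 had a fold change above 0, beside 50.3% of all transcripts tested. The 2 below 0 were Pcdhgc4-203 and another transcript of the same gene, Pcdhgc4-202, with a retained intron and a log2 fold change of -0.51 (SE 0.50). Of the 24, 21 join an own exon of at least 2500 bases to the constant exons, and 16 of these 21 were above 0 without Vehicle B, where 50.8% of all transcripts were. The ratio of Pcdhgc4-203 to all other gamma transcripts was 0.494, 0.529, 0.366 and 0.590 in AM6545 and 1.57, 0.709 and 0.527 in Vehicle. Vehicle B was the only library above 1, and Vehicle E, at 0.527, lay below AM6545 D and F, so that the groups overlapped. Most of these transcripts share the constant exons, and the part of read division between them in the opposite directions was not tested.

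**Figure D4:**
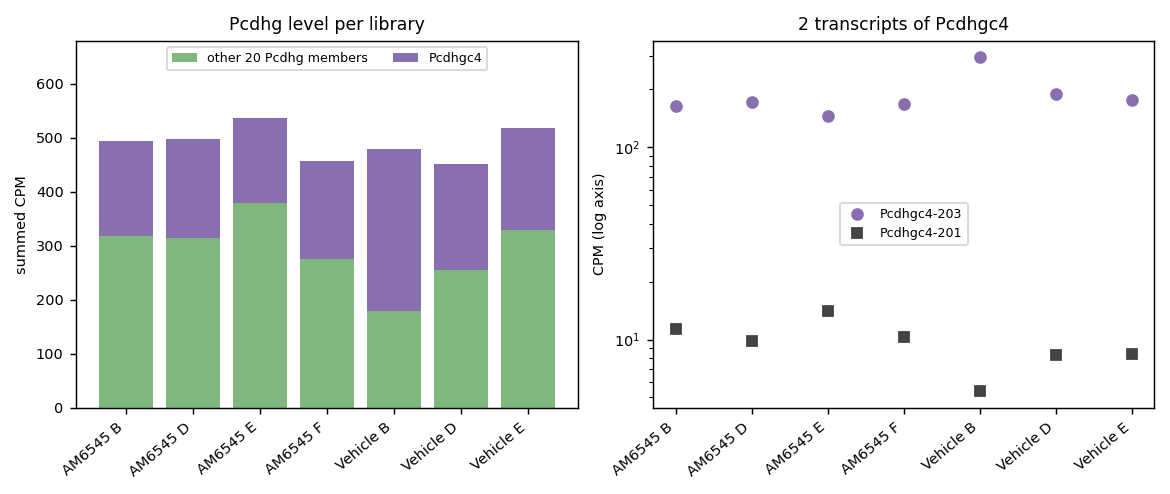
Left, summed CPM of the gamma cluster in each of the 7 libraries, split into Pcdhgc4 (purple) and the other 20 members (green). Right, CPM (log axis) of Pcdhgc4-203 (circles) and Pcdhgc4-201 (squares) in the same libraries; Vehicle B has the highest circle (294) and the lowest square (5.41).

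Vehicle B was the lowest of the 7 libraries in 17 of the 20 gamma members other than Pcdhgc4, in 7 of 21 beta members and in 2 of 14 alpha members. The median gamma member in Vehicle B was 0.65 log2 units below its mean over the libraries, where the beta median was -0.12 and the alpha median -0.08. AM6545 E stood at the other end, highest in 10 of those 20 gamma members, 9 of 21 beta members and 7 of 14 alpha members. The share of all genes lowest in Vehicle B or highest in AM6545 E was not counted. These counts therefore do not show how far the pattern is particular to the clusters. AM6545 E also had the steepest fall of expression with GC content (-0.12 log2 units per 10 percentage points) and the steepest rise with gene length. The median CV of gamma members was 24.6% over 7 libraries and 16.6% without Vehicle B, beside 13.8% and 11.4% over all genes. Among genes within the 10th to 90th percentile of member counts it was 14.3% and 12.4%. For alpha members it was 18.2% and 18.1%, above gamma without Vehicle B, and for beta members 14.1% and 14.4%. Vehicle B also had the steepest rise of expression with GC content of the 7 libraries (0.14 log2 units per 10 percentage points) and the steepest fall with gene length. The libraries' slopes with GC content were all below 0 in AM6545 and all above 0 in Vehicle, so that trend moved with the groups. After correction for GC content and length 20 of 21 gamma members were above 0, beside 52.7% of all genes. The part of GC content and length in the gamma values was not tested.

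**Figure D5:**
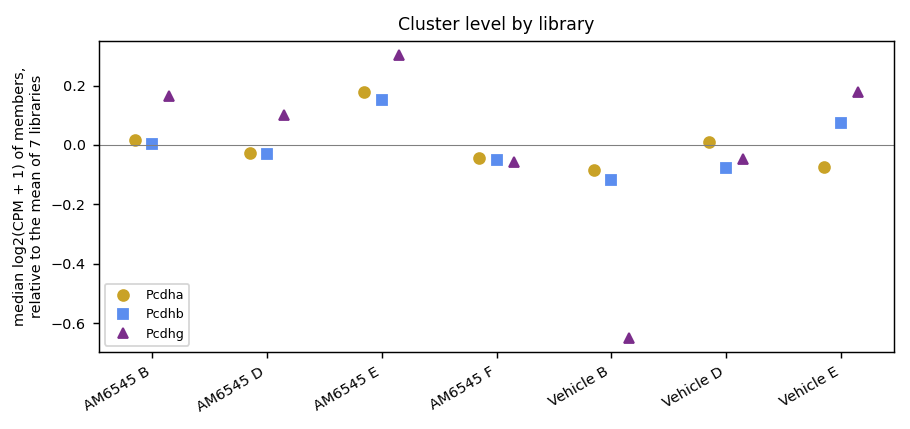
Median log2(CPM + 1) of the members of each cluster relative to their mean over 7 libraries (vertical axis), by library. The gamma triangle of Vehicle B lies at -0.65, while the alpha and beta medians lie between -0.12 and 0.18 in every library.

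Among the other C-type gamma members, Pcdhgc5 was at 104, 96.0, 123 and 88.8 CPM in AM6545 and at 56.8, 72.7 and 101 CPM in Vehicle. Vehicle E reached into the AM6545 range, and the log2 fold change was 0.42 (SE 0.18, edgeR adjusted p = 0.315). It was 0.25 without Vehicle B and 0.67 without Vehicle E. Pcdhgc3 was at 32.7, 36.7, 41.1 and 29.3 CPM in AM6545 and at 19.6, 30.5 and 35.8 CPM in Vehicle, with overlap. Its log2 fold change was 0.29 (SE 0.19) with all libraries, 0.08 without Vehicle B and 0.48 without Vehicle E. Together Pcdhgc3 and Pcdhgc5 held 42.3 to 43.4% of the gamma counts outside Pcdhgc4 in AM6545 and 40.4 to 42.5% in Vehicle, and these ranges overlapped.

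The alternate gamma members carry A or B in their names and differ in their own exons. Summed A members stood at 133 ± 17.7 CPM over the AM6545 libraries (SD, n = 4) and at 108 ± 32.6 CPM over the Vehicle libraries (SD, n = 3). Summed B members were at 50.6 ± 5.72 and 41.4 ± 11.7 CPM. Both sums overlapped between groups. Pcdhgb2 had the smallest p of all members. It was at 9.52, 8.85, 14.6 and 10.9 CPM in AM6545 and at 5.07, 6.01 and 8.44 CPM in Vehicle, with AM6545 E highest and a narrow gap between AM6545 D and Vehicle E. The log2 fold change was 0.76 (SE 0.21, edgeR adjusted p = 0.205, DESeq2 adjusted p = 0.0439, limma-voom adjusted p = 0.0460), and 0.62 without Vehicle B. Nearly all of its counts came from Pcdhgb2-202, with a log2 fold change of 0.76 (SE 0.25, edgeR adjusted p = 0.559).

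Pcdhga6 was at 8.78, 7.67, 12.4 and 7.67 CPM in AM6545 and at 3.87, 5.52 and 8.12 CPM in Vehicle. Vehicle E lay above the 2 lowest AM6545 libraries, and the log2 fold change was 0.66 (SE 0.25, edgeR adjusted p = 0.275), and 0.43 without Vehicle B. Without Vehicle E, 5 members passed an adjusted p of 0.05 (edgeR), where 6.38% of all genes did. They were Pcdhgb2, Pcdhga6, Pcdhgc5, Pcdhgc4 and Pcdhga5, the last named after its values were seen. The gamma median was then 0.48.

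The alpha cluster summed to 143, 143, 170 and 139 CPM in AM6545 and 137, 138 and 152 CPM in Vehicle, with means of 149 ± 14.1 (SD, n = 4) and 142 ± 8.45 (SD, n = 3). AM6545 E was the highest library and the groups overlapped. Pcdhac2 was at 55.1, 56.5, 73.5 and 55.6 CPM in AM6545 and at 51.7, 53.6 and 63.8 CPM in Vehicle. AM6545 E and Vehicle E were the 2 highest, and the log2 fold change was 0.09 (SE 0.13) with all libraries and -0.02 without AM6545 E. Pcdhac1 had a log2 fold change of 0.29 (SE 0.17, edgeR adjusted p = 0.432), with overlap.

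Pcdha2 was at 7.57, 4.66, 5.55 and 6.10 CPM in AM6545 and at 4.35, 3.63 and 3.14 CPM in Vehicle. The groups did not overlap, although AM6545 D and Vehicle B were close, and the log2 fold change was 0.68 (SE 0.19, edgeR adjusted p = 0.212). Pcdha3 had a log2 fold change of 0.32 (SE 0.17, edgeR adjusted p = 0.396). On the other side of 0, Pcdha10 had -0.34 (SE 0.20, edgeR adjusted p = 0.453), with AM6545 F, at 10.1 CPM, the highest of all libraries, and -0.58 without it. Pcdha10 is the name given here to a gene that the annotation labels Pcdha11 along with its neighbour, because it starts where RefSeq places Pcdha10. Pcdha4 had -0.18 (SE 0.15, edgeR adjusted p = 0.574) and was lowest in AM6545 E, at 7.53 CPM. Its log2 fold change was -0.08 without AM6545 E and -0.08 without Vehicle B. AM6545 E was also the only library with counts (31.4) for Gm42416, an overlapping readthrough gene that shares 39.0 to 83.1% of the 31-base words of the Pcdha4 transcripts. Gm42416 also shares 18.6% of the words of Pcdhgc4-203. For Pcdha11-204, Pcdhgc3-202, Pcdhgc5-203 and Pcdhgc5-204 the share was 11.7 to 74.1%. The part of this overlap in the members' values was not tested.

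Pcdha12, the second most abundant alpha member per length, was at 16.9, 17.5, 20.5 and 15.4 CPM in AM6545 and at 16.9, 18.02 and 20.3 CPM in Vehicle. The levels overlapped fully, with a log2 fold change of -0.07 (SE 0.12). As a share of the alpha cluster it held 11.1 to 12.2% in AM6545 and 12.4 to 13.4% in Vehicle, which did not overlap. The gap was narrow, between AM6545 D (12.24%) and Vehicle B (12.36%). The shares of Pcdhac2, Pcdhb9, Pcdhgc3, Pcdhgc4 and Pcdhgc5 in their clusters overlapped between groups.

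The beta cluster summed to 148, 139, 161 and 139 CPM in AM6545 and 136, 129 and 149 CPM in Vehicle, with means of 147 ± 10.5 (SD, n = 4) and 138 ± 9.97 (SD, n = 3) and overlap. Its most abundant members showed small differences: the log2 fold change was 0.17 (SE 0.12) for Pcdhb9, 0.05 (SE 0.14) for Pcdhb7 and 0.15 (SE 0.17) for Pcdhb12, with overlap in each. After correction for GC content and length these were 0.03, -0.11 and 0.04. Single libraries weighed on them too: Pcdhb9 was at 0.09 without AM6545 E and 0.25 without Vehicle E, and Pcdhb12 at -0.04 without Vehicle D and 0.36 without Vehicle E. Pcdhb7 was at -0.08 without Vehicle D and 0.14 without Vehicle B.

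Pcdhb2 was at 1.56, 1.60, 1.83 and 1.497 CPM in AM6545 and at 0.765, 0.927 and 1.46 CPM in Vehicle. Vehicle E fell just short of the AM6545 range, and the log2 fold change was 0.65 (SE 0.27, edgeR adjusted p = 0.315). Pcdhb11 had 0.41 (SE 0.23, edgeR adjusted p = 0.418), with overlap, and 0.25 without AM6545 B. Pcdhb13, the sparsest member, had 0.53 (SE 0.35, edgeR adjusted p = 0.491), and 0.33 without AM6545 E.

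Pcdhb22 was at 2.98, 2.86, 3.48 and 2.49 CPM in AM6545 and at 4.71, 4.35 and 3.03 CPM in Vehicle. Vehicle E lay within the AM6545 range, and the log2 fold change was -0.46 (SE 0.20, edgeR adjusted p = 0.315). Its spliced transcript Pcdhb22-201 had -0.80 (SE 0.32, edgeR adjusted p = 0.576) and its single-exon transcript Pcdhb22-202 had -0.24 (SE 0.28). Pcdhb18 was at 2.77, 2.82, 2.92 and 2.23 CPM in AM6545 and at 3.38, 3.23 and 3.14 CPM in Vehicle, so that all Vehicle libraries lay above AM6545. Its log2 fold change was -0.28 (SE 0.18, edgeR adjusted p = 0.471).

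The transcript data held 86 member transcripts, of which 65 were tested, and 0 passed an adjusted p of 0.05 (edgeR), against 0.0177% of all transcripts. At an unadjusted p under 0.05 there were 2 higher (Pcdhgb2-202 and Pcdhgc4-201) and 2 lower (Pcdhb22-201 and Pcdhgc4-203), where 3.89% of all transcripts were higher, 4.50% lower and 8.39% either.

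Relatives of the clustered protocadherins, and genes that act with or on them, were read from the same fit. None of the 4 lists had a gene past an adjusted p of 0.05 (edgeR). Of 10 non-clustered protocadherins, relatives that lack the cluster arrangement, 1 was higher and 0 lower at an unadjusted p under 0.05 (edgeR). Over all genes 5.86% were higher and 8.70% lower at that level. The median log2 fold change of the list was -0.02, on the other side of 0 without Vehicle B (0.03). The higher gene was Pcdh20, at 154, 146, 171 and 135 CPM in AM6545 and 114, 126 and 131 CPM in Vehicle. Its groups did not overlap, as for 6.63% of all genes in that direction. The log2 fold change was 0.30 (SE 0.10, edgeR adjusted p = 0.261). The next smallest p was that of Pcdh10, with -0.23 (SE 0.14), overlap, and -0.04 without Vehicle B.

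Of 15 tested regulators of promoter choice and chromatin, 2 were higher and 0 lower at that level, where 5.86% of all genes were higher and 8.70% lower. Their median was 0.11, but 0.02 without Vehicle B and -0.01 after correction for GC content and length. They were Stag1, a cohesin subunit, with 0.30 (SE 0.11, edgeR adjusted p = 0.265), and Wapl, which releases cohesin from DNA, with 0.23 (SE 0.09, edgeR adjusted p = 0.3003). Of 18 tested partners and processing enzymes, 5 were higher and 1 lower against the same shares. Their median was 0.14, but 0.08 after that correction and 0.08 without Vehicle B. Nckap1, a subunit of the actin-regulating WAVE complex to which many protocadherins bind, had 0.33 (SE 0.11, edgeR adjusted p = 0.235). The gene on the lower side was Psen2, a catalytic subunit of the gamma-secretase that cleaves protocadherins, with -0.32 (SE 0.11, edgeR adjusted p = 0.261). Of 8 classical cadherins 1 was higher and 0 lower against the same shares. The higher one was Cdh11, with 0.24 (SE 0.10, edgeR adjusted p = 0.306), and Cdh6 had -0.29 (SE 0.17). The median of that list was 0.09, but -0.08 with that correction and 0.01 without AM6545 E. With that correction the log2 fold change was 0.16 for Pcdh20, 0.14 for Wapl and 0.19 for Nckap1.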

How the data were processed

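The authors deposited gene and transcript tables of estimated counts made with Salmon 1.5.2 and mm10, per the submitters' processing notes, from SMARTer libraries per the labels' protocols; the annotation release is not given in the sources used here. The estimated counts were rounded to whole numbers. Identifiers were matched without their version to GENCODE M21 (22194 of 22248 genes), which gave names, lengths, exons and 31-base words; all 56 members carry a higher version than in M21, so lengths may differ. Genes that passed filterByExpr (14654, all members among them) were scaled by TMM and tested with edgeR 4.0.16 (glmQLFit, robust, and glmQLFTest; R 4.3.3) on all 7 libraries, with Benjamini-Hochberg adjustment and a threshold of 0.05. DESeq2 1.42.0 and limma 3.58.1 (voom) were alternatives. The scripts were tested on simulated data.

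Members named are, per cluster, the 3 highest per length, the C-type members, and the 2 smallest p per direction; transcripts and context genes follow the smallest p. Members and lists were chosen with earlier results of these data known. Members share exons, so their values are not independent, and no set test was run. No sequences are printed. Depth limits the sparsest members most, and p-values measure only the spread between these libraries.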

Additional observations from a re-analysis of the deposited data

Results flagged for a closer look

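Over the 57 named genes, named transcripts and cluster sums or shares examined in the 4 AM6545 libraries, 3 had a library far from the other 3, where chance gives about 2.85. All 3 were in AM6545 E: Pcdhac2 at 73.5 CPM, Pcdhb12 at 14.9 CPM and the summed Pcdha level at 169.9 CPM, of which Pcdhac2 is a part.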

How the results depend on the processing

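The count of members past an adjusted p of 0.05, 0 with edgeR (7 at an unadjusted p under 0.05), was 1 with DESeq2, 1 with limma-voom and 0 to 5 when each library was left out in turn, and stayed 0 at a threshold of 0.1. The count at an unadjusted p under 0.05 was 11 with limma-voom, where 23.9% of all genes were under it. It was 11 with the replicate letter as a block, where 8.18% of all genes were. When libraries were left out it ran from 2 without Vehicle B (6.46% of all genes) to 19 without Vehicle E (25.7% of all genes). The labels do not say what the replicate letters mean. Deviations from the group mean correlated at -0.26, -0.13 and -0.18 between libraries sharing a letter, and no library correlated best with its own letter. With so few libraries per group, these values cannot tell whether the letters mark a pairing. With the replicate block, genes at an unadjusted p under 0.05 went from 2134 to 1199, and 0 members passed the adjusted threshold. The Pcdhb median was -0.011 with the GC and length correction and -0.037 with the replicate block and that correction; Pcdhb7 was at -0.11 under both. Leaving out libraries gave medians of -0.0030 to 0.18 for Pcdha and 0.013 to 0.22 for Pcdhb, and log2 fold changes of -0.016 to 0.19 for Pcdhac2, -0.15 to 0.0071 for Pcdha12, -0.080 to 0.14 for Pcdhb7 and -0.041 to 0.36 for Pcdhb12. Leaving Pcdhgc4 out of the gamma sum, an alternative chosen after seeing the data, gave a log2 ratio of 0.34. Transcripts past the threshold numbered 0 under every alternative run. The causes were not tested.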
